A study of Mus musculus with 48 samples.

Results

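The genes *Ccdc117*, *Dedd2* and *Lrrc29* are 3 of the 19601 genes in the batch-corrected tables of this RNA-seq study of the mouse substantia nigra (SN), and all of them were among the 14839 genes that passed a filter on low counts. They were chosen by their measured values as strongly responding genes in these data, so the differences between groups that selected them are given here as a description, with no test. The SN was dissected from male C57BL/6J mice 90 to 98 days after a unilateral injection into the right striatum at the age of 121 days. Mice received either α-synuclein preformed fibrils (PFF), which seed aggregates of α-synuclein, or α-synuclein monomer as the control injection, and breathed either 21% O2 (normoxia) or 11% O2 (hypoxia). No mouse went without an injection, so the monomer mice at 21% O2 are the only reference, and the sources give the time at 11% O2 as either the whole 12 weeks or the last 6 of them. Of 48 mice, 12 in each group, 42 entered the batch-corrected tables, with 11 monomer and 12 PFF mice at 21% O2 and 9 monomer and 10 PFF mice at 11% O2.

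These 3 genes belong to unrelated families. *Dedd2* encodes a death effector domain protein, a family that carries apoptotic signals through the pairing of such domains with caspases and their adaptors, and the protein is found mainly in the nucleus and nucleolus. Its transcript is known as heat-inducible. *Lrrc29* (also *Fbxl9*) encodes an F-box protein with leucine-rich repeats, a family whose members select substrates for SCF ubiquitin ligases. *Ccdc117* encodes a coiled-coil protein that is little characterised and has been described with the cytosolic iron-sulfur assembly proteins. Its neighbour on chromosome 11 is *Xbp1*, the transcription factor of the unfolded protein response.

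On GRCm38, *Ccdc117* (ENSMUSG00000020482.4) lies on chromosome 11 from 5528887 to 5542187 on the minus strand, with 1 annotated transcript of 5 exons and 3372 exonic bases. *Dedd2* (ENSMUSG00000054499.9) lies on chromosome 7 from 25199915 to 25220615 on the minus strand, with 4 transcripts of 2 to 6 exons. *Lrrc29* (ENSMUSG00000041679.9) lies on chromosome 8 from 105312265 to 105326278 on the minus strand, with 5 transcripts of 3 to 7 exons. All 3 are annotated as protein-coding. The library kit as named does not mark strand, so reads of a gene and of a partner on the opposite strand cannot be told apart. For *Dedd2* this concerns 4933430L12Rik on the plus strand (chromosome 7, 25219368 to 25220930), which shares 238 exonic bases with it and was listed with at most 1 count in any of the 42 mice.

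The RefSeq promoter table holds an entry for 1 of the 3 genes, *Dedd2*, and the window is shown because the motifs of the heat shock and hypoxia responses can be looked up in it. It runs from 250 bases before to 50 bases after the start of the gene in that table, on chr7:25219810-25220109 of GRCm38.p6, minus strand, and is printed from 5′ to 3′ with the matched motif in capitals. This start, at 25219859, is that of 2 of the 4 GENCODE transcripts and lies 756 bases inside the span given above, whose outermost start belongs to another transcript.

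Dedd2 promoter: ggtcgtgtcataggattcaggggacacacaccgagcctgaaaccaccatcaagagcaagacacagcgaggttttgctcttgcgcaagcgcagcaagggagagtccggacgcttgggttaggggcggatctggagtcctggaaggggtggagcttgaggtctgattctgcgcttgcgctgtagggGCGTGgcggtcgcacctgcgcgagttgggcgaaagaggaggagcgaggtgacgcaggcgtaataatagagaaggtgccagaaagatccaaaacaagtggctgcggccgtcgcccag

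On both strands, the window held 1 copy of GCGTG, a form of the hypoxia response core, whose first base lies 66 bases before the start at position -66. GCGTG was found in 32.4% of the 32851 promoter windows of the same length. The other form, ACGTG, was not in this window and occurred in 19.6% of all windows. The heat shock element pairs GAANNTTC and TTCNNGAA, held by 7.86% and 8.52% of windows, were not among these letters, and neither was a heat shock element triplet (0.603% of windows), which contains such pairs. The E-box CACGTG (7.15% of windows), which contains ACGTG, the cAMP element TGACGTCA (1.79%), the XBP1 element TGACGTGG (0.676%), which also contains ACGTG, and the ER stress element (0.119%) were likewise not matched. *Ccdc117* and *Lrrc29* have no entry.

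The level of *Ccdc117*, in TPM (transcript counts scaled for gene length and library depth) after batch correction, was highest in the monomer mice breathing 21% O2, at a lowest value of 41.4, a median of 46.9 and a highest value of 54.5 (n = 11). In PFF mice at 21% O2 it was 23.5, 27.1 and 36.9 (n = 12). In monomer mice at 11% O2 it was 21.5, 27.9 and 33.2 (n = 9). In PFF mice at 11% O2 it was 25.2, 29.5 and 32.4 (n = 10). Every monomer mouse at 21% O2 lay above every mouse of the other 3 groups, whose values overlapped one another. Of all genes tested, 0.0202% (3 genes) had the monomer mice at 21% O2 apart from all other mice in either direction, and since the genes were chosen for these differences nothing is read from the share.

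*Dedd2* had a similar order at a lower level. Its TPM in the monomer mice at 21% O2 was 20.8 at the lowest, 24.4 at the median and 31.5 at the highest. In PFF mice at 21% O2 the same values were 15.5, 17.5 and 20.1, and in monomer mice at 11% O2 they were 15.9, 17.4 and 18.9. In PFF mice at 11% O2 they were 15.3, 16.5 and 19.0. The monomer mice at 21% O2 again lay above all others without overlap, although the gap to the highest PFF mouse at 21% O2 was small (20.8 against 20.1 TPM). As above, 0.0202% of all genes had this group apart, and nothing is read from the share. The other 3 groups overlapped.

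*Lrrc29* showed the opposite order at a far lower level. Its TPM in the monomer mice at 21% O2 was 1.92 at the lowest, 2.46 at the median and 3.25 at the highest. In PFF mice at 21% O2 the values were 3.39, 4.37 and 5.80, all above every monomer mouse at that O2 level, a separation found for 0.0404% of all genes (6 genes) in either direction. In monomer mice at 11% O2 they were 3.19, 3.99 and 4.97, and 1 mouse lay within the range of the monomer mice at 21% O2. In PFF mice at 11% O2 they were 2.79, 3.62 and 4.75, with 3 mice within that range. Before correction the gene had between 30 and 93 counts per mouse, against 291 to 651 for *Ccdc117* and 326 to 630 for *Dedd2*, so counting error weighs most on *Lrrc29*. Its coefficient of variation within a group was 14.0 to 16.6%, compared with 6.55 to 12.8% for *Dedd2* and 7.93 to 15.4% for *Ccdc117*.

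**Figure D1:**
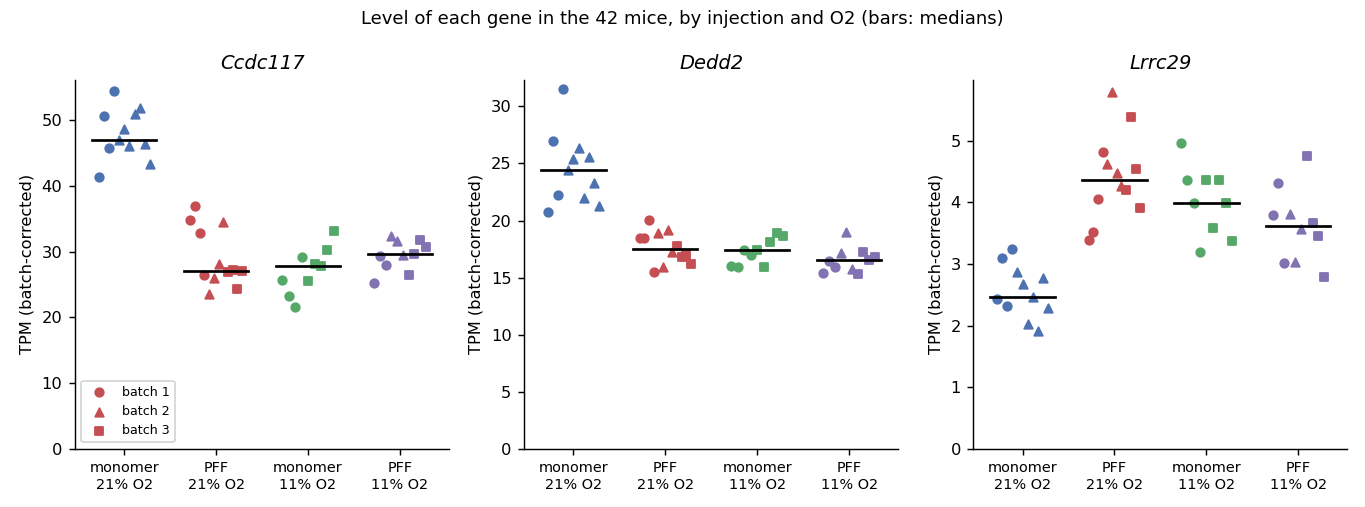
Batch-corrected TPM (y axes, from 0) of *Ccdc117*, *Dedd2* and *Lrrc29* in each of the 42 mice, by injection and O2 level (x axes). Each point is a mouse, its shape gives the batch and the bars are group medians; the monomer mice at 21% O2 sit highest for *Ccdc117* (median 46.9 TPM) and *Dedd2* (24.4 TPM) and lowest for *Lrrc29* (2.46 TPM).

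In SN tissue of this kind, fewer cells that express a gene and less RNA per cell cannot be told apart. Expressed as fitted differences, *Ccdc117* was lower in PFF than in monomer mice at 21% O2 with a log2 fold change of -0.70 ± 0.07 (SE), a change of -38.6%. *Dedd2* differed by -0.46 ± 0.05 and *Lrrc29* by 0.81 ± 0.10, a fold of 1.75. Among all genes tested, 3.70% passed the call used here for genes that are not among the 3 (adjusted p below 0.05 and an absolute log2 fold change above 0.25) in this comparison. By unadjusted p, *Ccdc117*, *Dedd2* and *Lrrc29* ranked 1, 3 and 6 of 14839, which only restates how they were chosen.

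Between PFF and monomer mice at 11% O2 the differences were small for all 3 genes. The log2 fold change was 0.13 ± 0.07 for *Ccdc117*, -0.04 ± 0.06 for *Dedd2* and -0.13 ± 0.11 for *Lrrc29*. No gene tested passed the call in this comparison (0% of 14839), although 581 genes had an unadjusted p below 0.05 in edgeR and DESeq2 called 1 gene.

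Between 11% and 21% O2 in monomer mice, the differences resembled those for PFF at 21% O2 in sign and size. Both comparisons subtract the monomer mice at 21% O2, so they are not independent and are only set side by side. *Ccdc117* had a log2 fold change of -0.81 ± 0.07, *Dedd2* of -0.50 ± 0.06 and *Lrrc29* of 0.66 ± 0.11. In this comparison 7.23% of all genes passed the call. In PFF mice, 11% against 21% O2 gave 0.02 ± 0.07 for *Ccdc117*, -0.08 ± 0.05 for *Dedd2* and -0.28 ± 0.10 for *Lrrc29*, where 0.580% of genes passed. The interaction of injection and O2, that is the PFF difference at 11% O2 minus that at 21% O2, was 0.83 ± 0.10 for *Ccdc117*, 0.42 ± 0.08 for *Dedd2* and -0.94 ± 0.15 for *Lrrc29*, against a background of 2.14% of genes called.

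The labels place the mice in 3 batches, each with 1 injection date, and the groups were spread unevenly over them. The paper links its batch effect to the day of euthanasia. In batch 3, monomer replicate 11 at 11% O2 was taken 98 days after injection and the other mice at 91 days. Batch 2 held no monomer mice at 11% O2 and batch 3 no monomer mice at 21% O2, so the effect of O2 in monomer mice can be seen within batch 1 alone. From counts before correction, the log2 difference of *Ccdc117* between PFF and monomer mice at 21% O2 was -0.54 ± 0.11 (SE) in batch 1 (4 against 4 mice) and -0.77 ± 0.13 in batch 2 (4 against 7). For *Dedd2* it was -0.45 ± 0.12 and -0.42 ± 0.08, and for *Lrrc29* 0.53 ± 0.17 and 0.98 ± 0.13. In each of these batches the TPM ranges of PFF and monomer mice were apart for all 3 genes, as they were for 8.61% of all genes tested in batch 1 and 5.71% in batch 2. The same differences chose the genes, so the separation is a description. *Ccdc117*, for example, was at 26.1 to 34.9 TPM in PFF mice and 41.1 to 52.2 in monomer mice of batch 1, and at 20.1 to 29.7 and 37.2 to 44.6 in batch 2.

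Within batch 1, monomer mice at 11% O2 (n = 4) differed from those at 21% O2 (n = 4) by a log2 difference of -0.93 ± 0.12 for *Ccdc117*, -0.57 ± 0.11 for *Dedd2* and 0.58 ± 0.18 for *Lrrc29*. The TPM ranges were apart for all 3 genes, for *Lrrc29* only barely (2.95 to 4.60 against 2.11 to 2.94), beside 9.56% of all genes tested. The effect of O2 in PFF mice was not uniform across batches. For *Ccdc117* it was -0.23 ± 0.09 in batch 1, 0.20 ± 0.13 in batch 2 and 0.17 ± 0.07 in batch 3, so its sign in batch 1 was opposite to that in the others. For *Lrrc29* it was -0.10 ± 0.20, -0.43 ± 0.14 and -0.32 ± 0.19, and in batch 2 alone the ranges were apart, as for 9.82% of all genes there. For *Dedd2* it lay between -0.17 ± 0.06 and -0.01 ± 0.10.

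**Figure D2:**
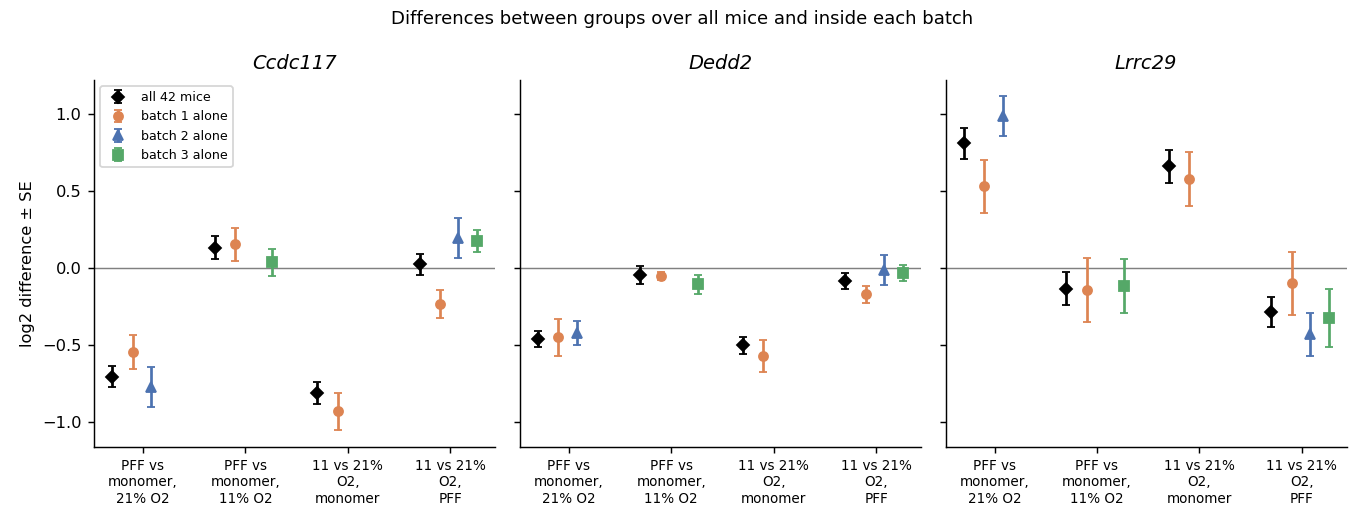
Log2 differences between groups (y axes, with SE bars) for 4 comparisons (x axes), from the fit of all 42 mice (diamonds) and from log2 CPM (counts scaled to the TMM-adjusted library total) before correction inside each batch that holds both groups. For PFF against monomer mice at 21% O2, both batches lie on the same side of 0 for every gene, from -0.77 to -0.42 for *Ccdc117* and *Dedd2* and at 0.53 and 0.98 for *Lrrc29*.

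Values from 6 mice that the authors left out of the batch-corrected tables did not enter the choice of the genes from those tables. The 1 left-out monomer mouse at 21% O2 had 41.6 TPM of *Ccdc117* before correction, inside the range of the 7 mice of its group and batch (37.2 to 44.6). The 5 left-out mice at 11% O2 had 21.5, 32.5, 27.8, 30.2 and 29.7 TPM, all below the lowest monomer mouse at 21% O2 in any batch (37.2 TPM). The first of them, a PFF mouse, came from a shallow library of 3134594 counts and was below the 3 mice of its group and batch. The second, also a PFF mouse and from a library of 13265802 counts, was above the 3 mice of its group and batch (25.3 to 27.8 TPM), and the 3 monomer mice were inside the range of theirs. These 3 monomer mice were of batch 3, which held no monomer mice at 21% O2, so batch and O2 cannot be told apart for them. The share of all genes with such positions in the left-out mice was not computed, so nothing is read from them.

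For *Dedd2* the left-out monomer mouse at 21% O2 had 18.3 TPM, just below the 18.8 to 23.6 of its group and batch. The 5 mice at 11% O2 had 10.02 to 17.3 TPM, the lowest again in the shallow library, and all lay below that monomer mouse. For *Lrrc29* the monomer mouse at 21% O2 had 2.59 TPM, inside the 1.77 to 2.66 of its group and batch. The 3 left-out monomer mice at 11% O2 had 3.94, 3.33 and 3.21 TPM and the deeper PFF mouse at 11% O2 had 3.04, all above the highest monomer mouse at 21% O2 before correction (2.94). The shallow library had 2.20 TPM from 9 counts. For these 2 genes too the left-out monomer mice at 11% O2 were of batch 3, and no share over all genes was computed. Nothing is read from the positions.

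Whether the 3 genes moved together from mouse to mouse was asked after the mean of each group and batch had been subtracted, since the choice of the genes rests on differences between groups. Over the 42 mice, log2 CPM (counts scaled to the TMM-adjusted library total) of *Ccdc117* and *Dedd2* correlated at a Pearson r of 0.37 (permutation p = 0.042, adjusted p = 0.10). The Spearman rho was 0.38 (permutation p = 0.033, adjusted p = 0.099). The permutation tests were two-sided, within group and batch, and adjusted over 3 pairs. Without the 2 mice farthest from the median of *Ccdc117*, r was 0.50. *Ccdc117* and *Lrrc29* had an r of -0.32 (permutation p = 0.068, adjusted p = 0.10) and a rho of -0.29 (p = 0.11, adjusted p = 0.16), and r was -0.34 without the 2 farthest mice. *Dedd2* and *Lrrc29* had an r of -0.14 (permutation p = 0.40, adjusted p = 0.40) and a rho of -0.18 (p = 0.29, adjusted p = 0.29), and r was -0.29 without the 2 farthest mice. None of the pairs passed after adjustment in this measure. For *Ccdc117* and *Dedd2*, r was 0.41 in log2 TPM before correction (permutation adjusted p = 0.064), 0.28 over all 48 mice (adjusted p = 0.12), 0.36 in the mice at 21% O2 alone (adjusted p = 0.47) and 0.40 in those at 11% O2 alone (adjusted p = 0.13). For *Ccdc117* and *Lrrc29* the same 4 values lay between -0.46 and -0.21, with permutation adjusted p between 0.079 and 0.56. Of the 5 alternatives run, pairs passed only on the batch-corrected counts with group means subtracted, with r = 0.49 for *Ccdc117* and *Dedd2* (permutation p = 0.00051, adjusted p = 0.0015) and r = -0.36 for *Ccdc117* and *Lrrc29* (p = 0.019, adjusted p = 0.029).

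**Figure D3:**
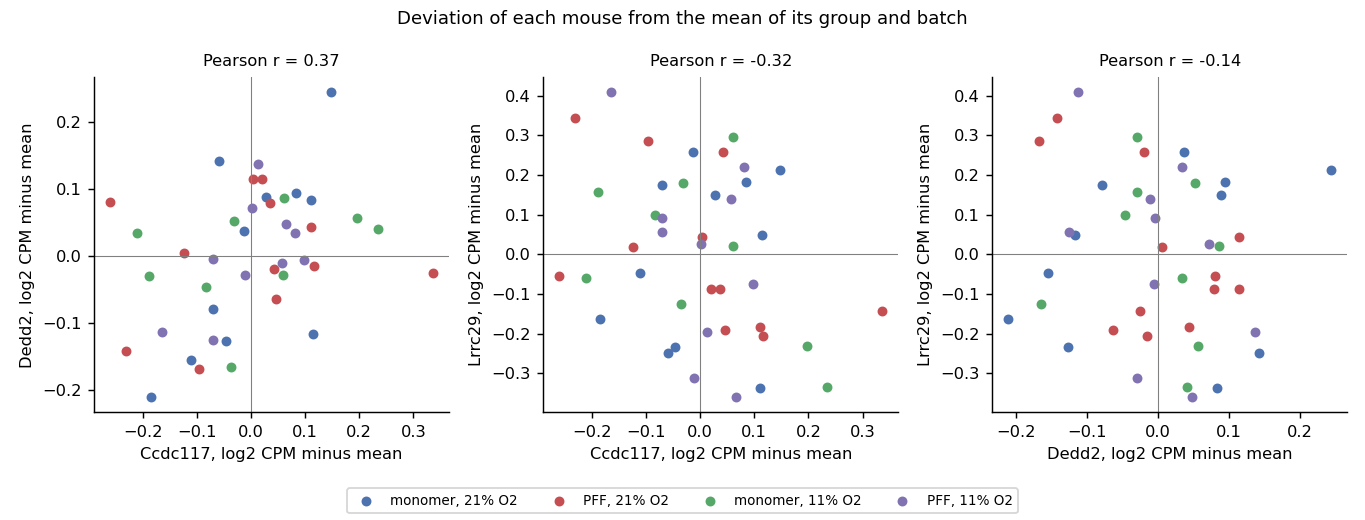
Deviation of each mouse from the mean of its group and batch, in log2 CPM before correction, for the pairs of *Ccdc117*, *Dedd2* and *Lrrc29*. Points are the 42 mice, coloured by group; *Ccdc117* and *Dedd2* lean upwards (r = 0.37), *Ccdc117* and *Lrrc29* downwards (r = -0.32), and *Dedd2* and *Lrrc29* show the weakest relation (r = -0.14).

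The genes most like each of the 3 were ranked by the Pearson r of the same deviations over the 42 mice, as a description with no test, since the extremes of many genes were taken. For *Dedd2*, a high value was that of *Dnajb1*, an HSP40 co-chaperone of the heat shock response, at r = 0.65. Also high were *Ipmk*, an inositol phosphate kinase, at 0.69, *Dhx29*, a helicase of translation initiation, at 0.64, and *Rnf185*, a ubiquitin ligase of the endoplasmic reticulum, at 0.62. The lowest were *Rbak* (-0.70) and *Zfp119b* (-0.63), both zinc finger proteins, and *Dipk2b* (-0.63). Of the genes given here, *Dnajb1* fell in PFF mice at 21% O2 (log2 fold change -0.71 ± 0.07, edgeR adjusted p = 2.41e-09), while *Rbak* (0.26 ± 0.06, adjusted p = 0.0028) and *Zfp119b* (0.39 ± 0.09, adjusted p = 0.0084) rose. The others did not pass.

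For *Ccdc117* the highest were *Mxd4*, a MAX partner that opposes MYC, at r = 0.71, *Bmp2* at 0.68, *Eng*, a co-receptor of TGF-β in endothelium, at 0.67, *Lrp5*, a Wnt co-receptor, at 0.66, and *Klf15*, a transcription factor induced by glucocorticoids, at 0.66. The lowest were *Gmeb2* (-0.72), *Tmem17* (-0.68) and *Ccdc106* (-0.66). Of these, *Mxd4* (-0.30 ± 0.05, edgeR adjusted p = 0.00026) and *Klf15* (-0.30 ± 0.07, adjusted p = 0.0077) fell in PFF mice at 21% O2, and the other 6 did not pass. *Eng* rose with 11% O2 in monomer mice (0.36 ± 0.11, adjusted p = 0.023), which is against the sign of *Ccdc117* there.

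For *Lrrc29* the correlations were weaker. The highest were *Gpr15* at r = 0.60, *Etfbkmt* at 0.59, *Atg10*, an enzyme of autophagosome formation, at 0.56, *Galnt5*, a glycosyltransferase, at 0.56, and *Nfkbil1* at 0.55. The lowest were *Ranbp10* (-0.65), *Gm18336* (-0.59) and *Axin2*, an inhibitor of Wnt signalling (-0.58). *Galnt5* (1.23 ± 0.26, edgeR adjusted p = 0.0025) and *Nfkbil1* (0.26 ± 0.06, adjusted p = 0.0055) rose in PFF mice at 21% O2, and the other 6 did not pass.

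Over the 42 mice the log2 total count had an r of 0.08 with *Ccdc117*, 0.20 with *Dedd2* and 0.11 with *Lrrc29*, as a description. The r of cell type markers with *Ccdc117*, *Dedd2* and *Lrrc29* from mouse to mouse is likewise a description, with no test. The median r with *Ccdc117* was -0.42 over 8 dopaminergic neuron markers, all of them negative. It was 0.29 over 7 astrocyte, 0.25 over 8 microglial, 0.36 over 7 endothelial, 0.45 over 5 leptomeningeal and 0.12 over 5 red cell markers, and every marker of these lists was positive. With *Dedd2* the signs of these 5 lists were the reverse, with a median r of -0.18 over the astrocyte, -0.31 over the microglial, -0.25 over the endothelial, -0.26 over the leptomeningeal and -0.37 over the red cell markers. Each of these markers was negative, as were the 5 pericyte (median r -0.29) and 4 choroid plexus markers (-0.15), while the dopaminergic ones had a median of 0.03. With *Lrrc29* the 8 dopaminergic (median r 0.19) and 5 red cell markers (0.11) were all positive and the 5 leptomeningeal ones all negative (-0.17). With *Ccdc117* signs were mixed for neuronal (4 of 9 positive), oligodendrocyte (7 of 8), pericyte (4 of 5) and choroid plexus markers (2 of 4). The median over all genes was 0.00083 for *Ccdc117*, -0.01 for *Dedd2* and -0.007 for *Lrrc29*. Of all genes, 5% had an r below -0.41 and 5% above 0.40 with *Ccdc117*, and below -0.34 and above 0.33 with *Dedd2*. With *Lrrc29* these limits were -0.31 and 0.30. Most list medians lay inside these ranges. Markers of 1 cell type are not independent of one another, and the part of tissue makeup in these relations was not tested.

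The gene lists around the 3 genes were described by counts of genes that passed and by the median log2 fold change, beside 0.00085 over all genes for PFF against monomer mice at 21% O2. All lists were chosen with earlier results of these data known, so their counts are a description. Beside them stand 3.70% of all genes called for PFF at 21% O2, 7.23% for 11% O2 in monomer mice and 2.14% for the interaction. Of 22 heat shock genes, chaperones and co-chaperones that cells induce on protein damage, 7 fell and none rose, and the median was -0.15. *Dnajb1* is given above. *Hspa1a*, an inducible HSP70, fell, at -1.60 ± 0.22 (edgeR adjusted p = 6.6e-06), but its reads are hard to separate from those of its near-identical copy *Hspa1b*, so the split between them is uncertain. *Hsph1*, an HSP110, fell, at -0.48 ± 0.07 (adjusted p = 7.52e-06). In batch 1 the log2 difference of *Dnajb1* was -0.52 ± 0.19 and in batch 2 -0.77 ± 0.13, of *Hspa1a* -1.50 ± 0.54 and -1.49 ± 0.38, and of *Hsph1* -0.41 ± 0.19 and -0.45 ± 0.07. Over the whole list, the median was -0.07 in batch 1, with 5 of 22 genes above 0, and -0.24 in batch 2, with none above 0. Fitted in batch 1 alone, none of the 22 passed.

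Between 11% and 21% O2 in monomer mice, 10 of the 22 heat shock genes fell and none rose, with a median of -0.25 beside -0.006 over all genes. *Dnajb1* fell, at -0.87 ± 0.08 (edgeR adjusted p = 4.6e-11), as did *Hspa1a*, at -2.09 ± 0.25 (adjusted p = 1.52e-07). Between PFF and monomer mice at 11% O2 none passed and the median was 0.03. For the interaction 5 were higher and none lower. Across mice of 1 group and batch, *Dedd2* correlated positively with 19 of the 22 genes (median r 0.28), *Ccdc117* with 14 (0.13) and *Lrrc29* with 14 (0.09), where 5% of all genes had an r above 0.33 with *Dedd2*.

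The endoplasmic reticulum (ER) stress list, with *Xbp1* and genes of the unfolded protein response, had the same direction over all mice. Of its 16 genes, also chosen with earlier results known, 8 fell for PFF at 21% O2 and none rose, with a median of -0.23. *Hspa5*, the ER chaperone BiP, fell, at -0.46 ± 0.08 (edgeR adjusted p = 0.00029), as did *Creld2*, at -0.58 ± 0.11 (adjusted p = 0.00067). In batch 1, however, the median of the list was 0.02 and 10 of the 16 were above 0, with *Hspa5* at 0.02 ± 0.14 and *Creld2* at 0.02 ± 0.15. In batch 2 the median was -0.37 and all 16 were below 0, with *Hspa5* at -0.73 ± 0.08 and *Creld2* at -0.94 ± 0.17. *Ccdc117* and *Dedd2* were lower in PFF mice in both batches (above), but they were chosen for this difference, so the contrast with the list is no result. With 11% O2 in monomer mice 9 of the 16 fell, and 3 were higher for the interaction, beside the shares of all genes given above.

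Of 6 cold-inducible and Clk kinase genes, 2 rose for PFF at 21% O2, both of them RNA-binding proteins induced by cold. *Cirbp* rose by 0.62 ± 0.08 (edgeR adjusted p = 1.45e-06) and *Rbm3* by 0.31 ± 0.06 (adjusted p = 0.00036), in the direction of *Lrrc29*, while the third gene by p, *Clk1*, was at -0.13 ± 0.07 and did not pass. *Cirbp* was at 0.20 ± 0.11 in batch 1 and 0.91 ± 0.09 in batch 2. From mouse to mouse *Cirbp* had an r of -0.50 with *Dedd2*, -0.33 with *Ccdc117* and 0.13 with *Lrrc29*. It did not stand for its list of 6 genes. Over the list the median r was -0.14 with *Dedd2* (2 positive), 0.26 with *Ccdc117* (5 positive) and -0.11 with *Lrrc29* (2 positive). With *Ccdc117*, *Cirbp* was the only negative gene of the list.

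The counts for the families of the 3 genes stand beside 3.70% of all genes called for PFF at 21% O2. Of 12 death effector genes and their partners, only *Bid*, a BH3 protein that caspase-8 cleaves, passed for PFF at 21% O2, higher by 0.31 ± 0.08 (edgeR adjusted p = 0.019), with a value of -0.01 ± 0.13 in batch 1 and 0.57 ± 0.08 in batch 2. *Dedd*, the closest relative of *Dedd2*, was at -0.15 ± 0.06 (adjusted p = 0.12), and *Fadd*, the adaptor of death receptors, at 0.21 ± 0.09 (adjusted p = 0.16). With 11% O2 in monomer mice *Fadd* rose by 0.45 ± 0.10 (adjusted p = 0.0014) and was the only one of the 12 to pass. In that comparison 7.23% of all genes passed, so nothing is read from 1 gene.

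Of 19 other F-box genes of the leucine-rich repeat family that were tested, none passed for PFF at 21% O2, and the median was -0.02. The genes with the smallest p were *Kdm2a* at -0.15 ± 0.04, *Fbxl4* at 0.20 ± 0.05 and *Fbxl14* at -0.19 ± 0.06, all short of the fold threshold. With 11% O2 in monomer mice 1 of them fell, *Skp2* (-0.30 ± 0.08, edgeR adjusted p = 0.0064), named after its value was seen, beside 7.23% of all genes called. Of 9 cytosolic iron-sulfur assembly genes none passed in the 2 comparisons. *Mms19*, *Ciao3* and *Nubp2* were at 0.12 ± 0.05, 0.11 ± 0.04 and 0.11 ± 0.05 for PFF at 21% O2. For the interaction *Cirbp*, *Rbm3* and 1 iron-sulfur gene, *Ndor1* (-0.32 ± 0.09, edgeR adjusted p = 0.042), which is named after its value was seen, were lower, and none of the death effector or F-box genes passed.

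**Figure D4:**
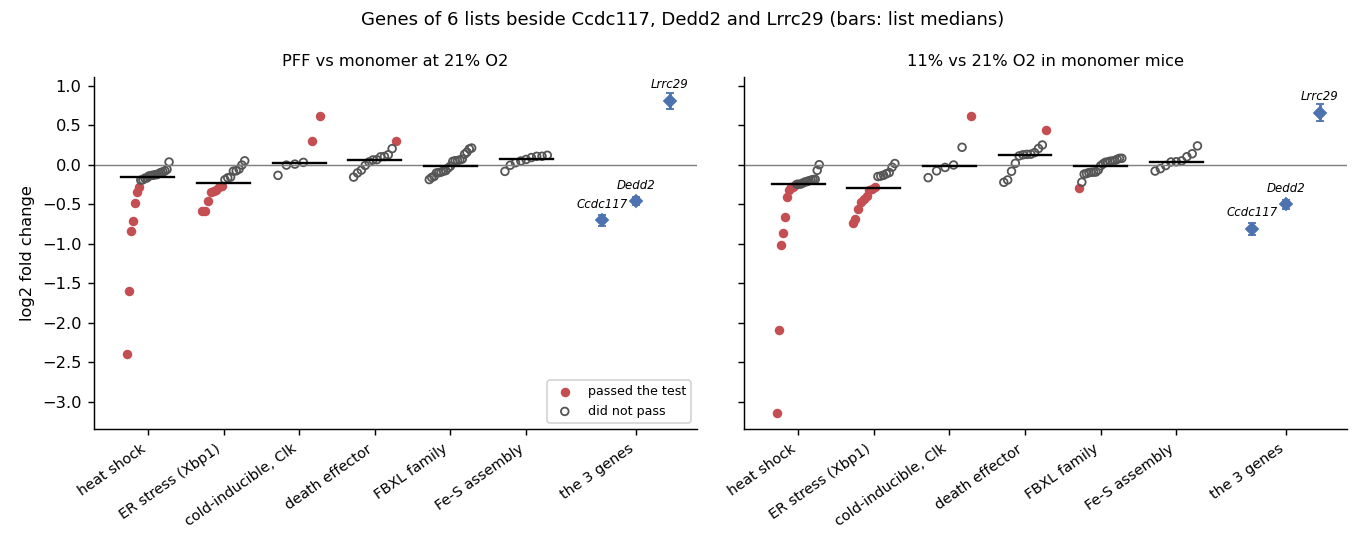
Log2 fold change (y axes) of each gene of 6 lists (x axes) for PFF against monomer mice at 21% O2 and for 11% against 21% O2 in monomer mice, 2 comparisons that share the monomer mice at 21% O2. Filled points passed the test, open points did not, bars are list medians and diamonds with SE are the 3 genes. Heat shock (median -0.15 and -0.25) and ER stress genes (-0.23 and -0.29) lie mostly on the side of *Ccdc117* and *Dedd2*. The lists were chosen with earlier results of these data known.

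The genes next to each of the 3 were examined in the order of the chromosome. Of the 11 neighbours tested, *Xbp1*, *Zfp526* and *Elmo3* passed for PFF at 21% O2, beside 3.70% of all genes. Only *Xbp1* passed for 11% O2 in monomer mice, beside 7.23%. A link between the neighbours and the 3 genes was not tested. *Xbp1* lies 2993 bases from *Ccdc117* on the plus strand, so that the genes end towards each other. Its TPM was 94.7, 119 and 151 (lowest, median and highest) in monomer mice at 21% O2, 75.7, 89.6 and 122 in PFF mice at 21% O2, 71.2, 87.4 and 104 in monomer mice at 11% O2 and 78.5, 88.8 and 98.1 in PFF mice at 11% O2. As for *Ccdc117*, the monomer mice at 21% O2 had the highest median, but here the ranges overlapped. *Xbp1* fell for PFF at 21% O2 (log2 fold change -0.35 ± 0.07, edgeR adjusted p = 0.00095) and with 11% O2 in monomer mice (-0.43 ± 0.07, adjusted p = 8.76e-05), yet within batch 1 its PFF difference was -0.03 ± 0.11, against -0.53 ± 0.08 in batch 2, and from mouse to mouse its r with *Ccdc117* was -0.05. On the same side, *Znrf3* was at 0.09 ± 0.04 and did not pass, *Mrps24* on the other side was at 0.02 ± 0.05, and *Ankrd36* did not pass the filter on low counts.

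The promoter side of *Dedd2* faces *Zfp526*, a zinc finger gene on the plus strand 809 bases away. *Zfp526* fell for PFF at 21% O2 (-0.28 ± 0.08, edgeR adjusted p = 0.025), at -0.38 ± 0.10 in batch 1 and -0.21 ± 0.19 in batch 2, and the call was lost when batch was a covariate. With 11% O2 in monomer mice it was at -0.17 ± 0.09 (adjusted p = 0.19). *Gsk3a*, *Pou2f2* and *Zfp574* were at -0.08 ± 0.05, 0.16 ± 0.07 and -0.10 ± 0.06 for PFF at 21% O2 and did not pass.

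*Lrrc29* starts 75 bases from *Tmem208*, which runs the other way, so that their annotated starts lie side by side. *Tmem208*, a protein of the ER membrane, was at 0.05 ± 0.05 for PFF at 21% O2 and -0.05 ± 0.05 with 11% O2 in monomer mice, and passed in neither. *Elmo3*, 1504 bases from the other end of *Lrrc29* and pointing towards it, rose for PFF at 21% O2 (0.34 ± 0.07, edgeR adjusted p = 0.0031), with 0.19 ± 0.16 in batch 1 and 0.50 ± 0.10 in batch 2, and had an r of 0.41 with *Lrrc29* from mouse to mouse. *E2f4* and *Fhod1* were at -0.12 ± 0.05 and 0.09 ± 0.06 and did not pass, and *E2f4* had an r of -0.50 with *Lrrc29*.

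**Figure D5:**
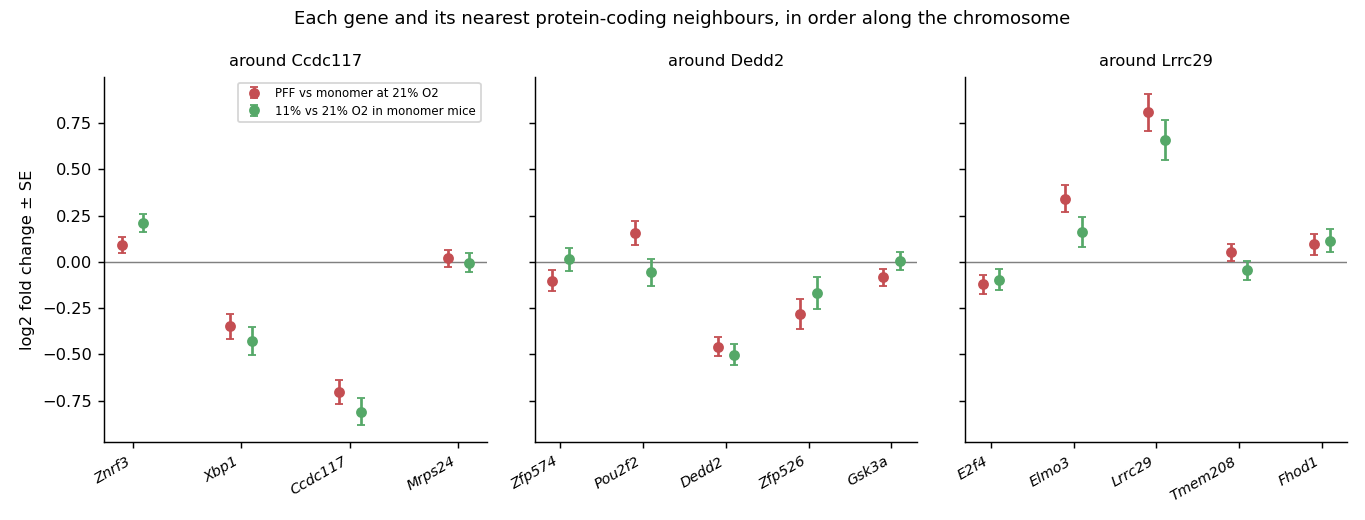
Log2 fold change with SE (y axes) of *Ccdc117*, *Dedd2* and *Lrrc29* and of the nearest protein-coding genes that were tested, in their order along the chromosome (x axes), for 2 comparisons that share the monomer mice at 21% O2. *Xbp1* (-0.35), *Zfp526* (-0.28) and *Elmo3* (0.34), the ones that passed of 11 tested, lie on the side of the gene beside them for PFF at 21% O2. In batch 1 *Xbp1* was at -0.03, and the call of *Zfp526* was lost with batch as a covariate. Others lie on the opposite side, such as *Znrf3* (0.09), *Pou2f2* (0.16) and *E2f4* (-0.12), and *Tmem208* (0.05), beside *Lrrc29*, lies near 0.

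The tissue was checked by its dopaminergic markers. *Th*, the rate-limiting enzyme of dopamine synthesis, ranged from 96.1 to 1079 TPM over the 42 mice and *Slc6a3*, the dopamine transporter, from 263 to 1932, so the markers were present in every mouse and their amount varied widely within groups. For PFF at 21% O2 none of 8 dopaminergic, 9 neuronal, 7 astrocyte and 8 microglial markers passed. Within batches, however, several of these lists shifted together. The dopaminergic markers had a median log2 difference between PFF and monomer mice at 21% O2 of -0.27 in batch 1, with 0 of 8 above 0, and 0.29 in batch 2, with 8 of 8 above 0. In batch 1 all 8 microglial (median 0.40), all 7 astrocyte (0.27), all 7 endothelial (0.17) and all 5 red cell markers (0.32) were above 0, against medians of 0.02, -0.01, -0.19 and -0.04 in batch 2. *Ccdc117* and *Dedd2* were lower and *Lrrc29* higher in PFF mice in both batches, but the genes were chosen for these differences. Nothing is read from the contrast, and the part of tissue makeup in them was not tested. Over all mice, 1 of 8 of the oligodendrocyte list passed, *Opalin* (0.60 ± 0.10, edgeR adjusted p = 0.00026, and 0.05 ± 0.20 in batch 1). Of the endothelial list 1 of 7 passed, *Slco1a4* (0.45 ± 0.14, adjusted p = 0.042). Both were named after their values were seen. None of the 5 pericyte, 5 leptomeningeal, 5 red cell and 4 choroid plexus markers tested passed.

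With 11% O2 in monomer mice, 6 of 7 endothelial, 5 of 5 pericyte, 5 of 5 red cell and 3 of 8 oligodendrocyte markers rose, beside 7.23% of all genes called. The endothelial list holds *Kdr* (1.15 ± 0.09), which the paper names among HIF targets raised by hypoxia. A change in the amount of endothelium was not tested. The summed TPM of the endothelial list was 133.6 to 193.2 in monomer mice at 21% O2, 119.6 to 222.6 in PFF mice at 21% O2, 195.1 to 355.4 in monomer mice at 11% O2 and 192.7 to 268.8 in PFF mice at 11% O2. Summed red cell markers ran from 514 to 1404, 383 to 2409, 1058 to 5795 and 1104 to 4972 TPM in the same order of groups. The part of these changes in the levels of the 3 genes was not tested.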

How the data were processed

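Bulk RNA-seq of poly(A) RNA from the SN of 48 mice was analysed. Per the labels and the study's methods, the authors aligned reads to mm10 with STAR 2.7.5a after removing ribosomal reads, and counted them with featureCounts 2.0.1; the submitters' processing notes also name Picard 2.21.9, GATK 4.1.5.0-9 and Scanpy 1.8.1. The authors deposited raw counts for 55385 genes and TPM computed from them. They set 6 mice aside as outliers, corrected the counts of the other 42 for batch by ComBat-seq with injection and O2 as kept covariates, and deposited batch-corrected counts and TPM for 19601 genes. The 42 mice had 12902996 to 17120921 counts before correction. Positions come from GENCODE vM21 on GRCm38 and may differ slightly from the annotation the authors counted with.

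The batch-corrected counts were tested here with edgeR 4.0.16 in R 4.3.3 (TMM, filterByExpr, quasi-likelihood test, 4 groups in 1 fit, no batch term), with Benjamini–Hochberg adjustment over 14839 genes; an SE is the size of the log2 fold change over the root of its F statistic. The script was tested on simulated data. Values within batches, in left-out mice and across mice use counts or TPM before correction. Their log2 CPM has a prior count of 0.5 and is scaled to the TMM-adjusted library total of the genes that passed the filter. Correlations of pairs used 100000 permutations within group and batch (SciPy). Where nothing else is said, n counts mice, and labels number the replicates of a group from 1 to 12.

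The 3 genes and all gene lists were chosen with earlier results of these data known. Named beside them were, by rule, the 5 genes with the highest and the 3 with the lowest r for each, up to 2 protein-coding neighbours on each side, the 3 genes of each of the 6 pathway lists with the smallest p for PFF at 21% O2, and Th and Slc6a3; 1 gene that the rule selected is not reported here. Alternatives were DESeq2 1.42.0, its size factors, no filter on low counts, batch as a covariate, batch 1 alone, a replicate block, limma 3.58.1 on log2 TPM (pseudocount 1 or 0.1, or a minimum mean TPM of 1), leaving out each mouse, and other units and mice for the correlations.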

Additional observations from a re-analysis of the deposited data

Results flagged for a closer look

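The difference between PFF and monomer mice depended on the O2 level for all 3 genes, with an interaction of 0.83 for Ccdc117, 0.42 for Dedd2 and -0.94 for Lrrc29 on the log2 scale. These differences are part of the response for which the genes were chosen, so they are given with no test. By the interaction term of edgeR (adjusted p below 0.05 and an absolute log2 value above 0.25), 13 of the other 53 genes named by rule were called, beside 2.14% of all genes. These were 8 of the 18 genes named for the smallest p of their list, 6 of the 24 named for their likeness across mice and 1 of 11 neighbours, with some named in more than 1 way. The genes named for the smallest p were chosen on PFF against monomer at 21% O2, which the interaction subtracts, so their count is favoured by the choice and is no result about the lists. Of the heat shock list these were Dnajb1 (0.77, adjusted p = 2.3e-05), Hspa1a (1.66, adjusted p = 0.0052) and Hsph1 (0.54, adjusted p = 0.0020), and of the ER stress list Hspa5 (0.48), Creld2 (0.64) and Xbp1 (0.36), with adjusted p between 0.022 and 0.046. The cold-inducible genes had the opposite sign, Cirbp at -0.69 (adjusted p = 0.00065) and Rbm3 at -0.31 (adjusted p = 0.028). Of the genes chosen for their likeness across mice, Mxd4 was at 0.35, Rbak at -0.32, Zfp119b at -0.53, Galnt5 at -1.43 and Nfkbil1 at -0.38, with adjusted p between 0.010 and 0.027. Of 4 genes named after their values were seen, Opalin (-0.71, edgeR adjusted p = 0.0073) and Ndor1 (-0.32, adjusted p = 0.042) were also called. Fitted in batch 1 alone, the only batch with all 4 groups, 0 genes of the pathway lists passed for the interaction.

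Among the groups of 9 and 10 mice at 11% O2, 1 value lay apart from its group. Dedd2 in a PFF mouse at 11% O2 (replicate 7, batch 2) was 19.0 TPM, and its gap to the next mouse took a share of 0.468 of the range of the 10 mice, just above the 95% critical value of Dixon's test. About 1 in 20 such groups would be marked by chance, and 6 groups were examined.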

How the results depend on the processing

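Over 12 or 13 alternatives each, Ccdc117 stayed between -0.77 and -0.54 for PFF at 21% O2 and between -0.92 and -0.73 for 11% O2 in monomer mice, Dedd2 between -0.48 and -0.42 and between -0.58 and -0.46, and Lrrc29 between 0.53 and 0.98 and between 0.50 and 0.69, on the log2 scale. Values that moved by more than the spread within groups were those of batch 1 alone, with 0.53 for Lrrc29 for PFF at 21% O2, -0.68 for its interaction and -0.24 for Ccdc117 for O2 in PFF mice, and that of batch 2 alone, chosen after the data were seen, with 0.20 for the latter.

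Of all genes tested, 3.70% were called for PFF at 21% O2 and 0.061% (9 genes) in batch 1 alone. For 11% O2 in monomer mice it was 7.23%, 4.44% with batch as a covariate in 42 mice and 2.01% in batch 1, and for O2 in PFF mice 0.580% and 0.041% in batch 1. For the interaction it was 2.14%, 1.37% without the filter on low counts, 1.39% and 1.03% with batch as a covariate in 42 and 48 mice, and 0.074% in batch 1. For PFF at 11% O2 DESeq2 called 1 gene (0.0067%). Batch 1 holds fewer mice; the cause was not tested otherwise. Of the 6 pathway lists, 18 genes passed for PFF at 21% O2 and 0 in batch 1, 22 and 12 for O2 in monomer mice, 0 and, with batch as a covariate in 42 or 48 mice, 1 for O2 in PFF mice, and 11 for the interaction, with 7 under the batch covariate in 42 mice, 0 in batch 1 and 6 under the replicate block. Of the named genes called over all mice, Hspa5 (0.024), Creld2 (0.034) and Bid (-0.0065) changed sign in batch 1 for PFF at 21% O2. Over all alternatives, 22 of 509 values of the other named genes for PFF at 21% O2 and 12 of 509 for O2 in monomer mice lost their call, and 0 and 3 gained it. A change of sign was counted only for genes called in the fit of all 42 mice or in the alternative, with 3 (those just given) and 0. Genes called in neither were not counted, such as Clk1 for PFF at 21% O2 (-0.13 over all mice, 0.12 in batch 1). The permutation test passed on batch-corrected counts for Ccdc117 with Dedd2 (r = 0.49) and with Lrrc29 (r = -0.36). There only group means were subtracted, not those of each batch, and the genes were chosen from the same corrected values. With group and batch means subtracted before correction, no pair passed (permutation adjusted p = 0.10, 0.10 and 0.40).

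With the replicate number of the labels as a block, Ccdc117, Dedd2 and Lrrc29 changed by less than the spread within groups, and 461 genes were called for PFF at 21% O2. The study describes matching of animals between groups, but neither it nor the labels say that a number marks a pair. Same-numbered monomer and PFF mice at 21% O2 had deviations that correlated at -0.35 to 0.30, with 4 of 11 above 0.1. Over the other 5 pairs of groups the share above 0.1 ran from 0 of 8 (monomer at 21% with monomer at 11% O2) to 7 of 9 (monomer at 21% with PFF at 11% O2, 0.04 to 0.44).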
